A study of Dunaliella salina with 6 samples.

Results

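SUTP1 and SUTP2 are a pair of genes of the halotolerant green alga *Dunaliella salina*, strain Bardawil (UTEX LB 2538), taken by their symbols in the authors' annotation. They are 2 of the 25081 genes in the expression table, with the identifiers DsB_g13619 and DsB_g23332. RNA came from vegetative wild-type cells grown for 3 days at 24 °C with shaking and constant light, in medium holding 1 M NaCl. The groups were cultures with 0 µM added iron and cultures with 1.5 µM added iron, with 3 flasks and 3 poly(A) RNA libraries in each group. Both genes were proposed for description because their RNA level was already known to differ between these groups, so their own difference is described here without a test.

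*D. salina* has no rigid cell wall and lives in brines in which dissolved iron is scarce. Green algae use iron in the photosynthetic and respiratory electron transport chains. When iron runs short they make more of the surface reductases, ferroxidases and transporters that take it up, and *D. salina* is known for transferrin-like proteins at its surface. The annotation gives SUTP1 and SUTP2 a symbol only, with no product name and no Pfam protein domain, and their molecular role is not stated here. Since neither has a Pfam domain, 0 other genes share one with them.

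SUTP2 was among the most abundant transcripts without added iron and was at a low level with it. Its level was 1859, 1739 and 1538 FPKM (fragments per kb of transcript and 1000000 mapped reads) in replicates 1, 2 and 3 without added iron, against 2.12, 2.28 and 1.89 FPKM in replicates 1, 2 and 3 with added iron. All 3 libraries without added iron lay far above all 3 with it, and within each group the libraries were close together. The means were 1712 ± 162 FPKM without added iron and 2.09 ± 0.196 FPKM with it (SD, n = 3 each), an 818-fold ratio of means. The lowest library without added iron was 676 times the highest with added iron. In these bulk libraries, the number of cells that hold a transcript and its amount per cell cannot be told apart.

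SUTP1 showed the same contrast at a lower level. It had 190, 194 and 99.9 FPKM in replicates 1, 2 and 3 without added iron, against 0.320, 0.289 and 0.242 FPKM in replicates 1, 2 and 3 with added iron. The groups did not overlap, and replicate 3 without added iron lay well under its other 2 replicates. The means were 161.5 ± 53.4 FPKM without added iron and 0.284 ± 0.0393 FPKM with it (SD, n = 3 each), a 569-fold ratio of means. The lowest library without added iron was 312 times the highest with added iron, and the highest was 803 times the lowest. The corresponding bounds of SUTP2, 676-fold and 985-fold, overlap these when libraries are taken across replicates. Taken as a ratio of the genes within each library, described below, the fold was larger for SUTP2 in every pairing of libraries.

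**Figure D1:**
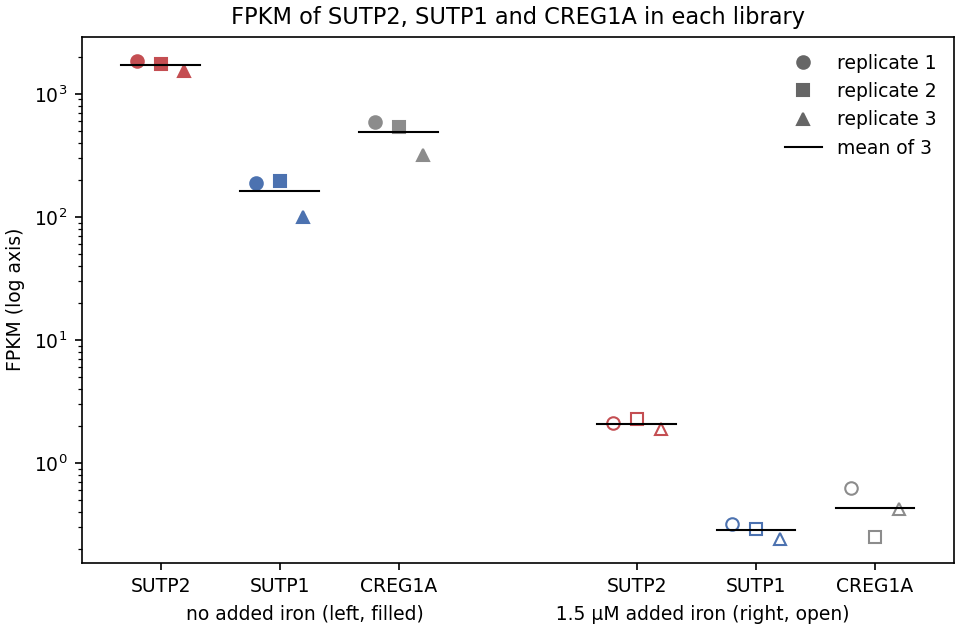
FPKM on a log axis of SUTP2, SUTP1 and their neighbour CREG1A in each library, without added iron on the left (filled) and with 1.5 µM added iron on the right (open); symbols mark the replicate and lines the mean of 3. SUTP2 lay above SUTP1 in all 6 libraries, and replicate 3 was the lowest library without added iron for all 3 genes.

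As background, 13909 genes had a mean of at least 1 FPKM over the 6 libraries. The groups did not overlap for 30.2% of them, and for 14.2% the values without added iron were the higher ones. By limma on log2(FPKM + 1) with a Benjamini-Hochberg adjusted p under 0.05, 9.39% were called in either direction, 4.19% were called higher without added iron and 0.324% were called at least 4-fold higher. The number called higher was 583 with all libraries. When single libraries were left out it lay between 271, without replicate 2 of no added iron, and 931, without replicate 3 of no added iron. Because SUTP1 and SUTP2 were picked from this contrast, nothing is read from their place in these shares. On the log2(FPKM + 1) scale the difference was 9.11 for SUTP2, which ranked 2 among the genes tested, and 6.92 for SUTP1, which ranked 10. Adding 1 to values under 1 FPKM lowers the SUTP1 difference more: with 0.1 added instead, the differences were 9.61 for SUTP2 and 8.66 for SUTP1.

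Ranked by mean FPKM over all 25081 genes, SUTP2 stood at 22 without added iron and at 12838 with added iron. With added iron 13798 to 13871 genes a library were at 1 FPKM or more, so SUTP2 stood low among these. Its neighbours in the order without added iron encode ribosomal proteins. RPL36A, next above, had 1834 ± 145 FPKM, and RPS21, next below, had 1655 ± 116 FPKM (SD, n = 3). The ranges of both overlapped that of SUTP2, so the order of these 3 genes was not resolved. SUTP1 stood at 418 without added iron and at 15085 with added iron. Its neighbours in the order without added iron were GAE4 at 161.6 ± 10.1 FPKM and PRPL29, a gene with a ribosomal L29 domain, at 161.1 ± 10.6 FPKM (SD, n = 3), both within the SUTP1 range of 99.9 to 194 FPKM. With added iron the neighbours of both genes in the order were models without a symbol or domain, and the next values differed by less than the SD.

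SUTP2 was the more abundant of the pair in every library. SUTP1 FPKM divided by SUTP2 FPKM was 0.102, 0.112 and 0.0649 in replicates 1, 2 and 3 without added iron, against 0.151, 0.127 and 0.128 in replicates 1, 2 and 3 with added iron. The mean ratio was 0.0930 ± 0.0248 in libraries of no added iron and 0.135 ± 0.0137 in those of added iron (SD, n = 3 each). The ratio was lower in all 3 libraries without added iron than in any with it, and this difference belongs to the contrast that chose the genes and was not tested. The level of SUTP2 also depends on its gene model. Its 3 annotated transcripts have exon lengths of 3179 to 7136 nt, a 2.24-fold span, and the sources used here do not say how reads were shared among them.

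The depth behind the low values can be judged from the steps between them. The step used was worth 1 read per exon length less an offset, not per full exon length. In replicates 1 and 2 of added iron, 82 and 104 models shared this step, fewer than the 126 and 134 sharing the full-length step. In the other libraries more models shared the step with the offset. In units of 1000000 reads, that step implied depths of 18.4, 19.3 and 21.1 in replicates 1, 2 and 3 of no added iron. The depths were 21.3, 19.1 and 24.9 in replicates 1, 2 and 3 of added iron. At these depths the SUTP1 level without added iron corresponded to 13400, 14300 and 8020 reads in replicates 1, 2 and 3, and that with added iron to 26.0, 21.0 and 23.0 reads. The SUTP1 level with added iron therefore rested on few reads but was above 0 in every library. For SUTP2 with added iron the implied reads lay between 129 and 140 on the length of its shortest transcript. They lay between 301 and 326 on that of its longest. The offset was taken from these lengths and from that of SUTP1. Intervals are not given, since whole reads could not be recovered for most genes.

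Replicate 3 without added iron was the low library for both genes, but not to the same extent. Its FPKM was 0.520 times the mean of replicates 1 and 2 for SUTP1 and 0.855 times for SUTP2. Over the 45 genes called at least 4-fold higher without added iron this ratio had a median of 0.658, and it was under 1 for 42 of them. Counted from the lowest, SUTP1 was at place 10 and SUTP2 at place 37 of the 45. The median over all genes tested was 0.939. Replicate 3 of each group also differed from replicates 1 and 2 in the steps of its deposited values. A step worth 1 read per full exon length was shared by 95 to 134 models in replicates 1 and 2 and by 7 or 8 models in replicate 3. Within replicates 1 and 2 the ratio of means was 632-fold for SUTP1 and 819-fold for SUTP2. Within replicate 3 the ratios were 413-fold and 816-fold. The part of this difference between libraries in the low SUTP1 value was not tested.

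The gene models of the pair differ in size and resemble each other in parts of their layout. SUTP1 spans bases 15903570 to 15914834 of chromosome 7 in the authors' assembly, on the plus strand, and has 1 annotated transcript with 17 exons. Its coding sequence of 3216 nt encodes 1071 residues. SUTP2 spans bases 3235431 to 3257681 of chromosome 15, also on the plus strand. Its longest transcript has 45 exons, with 6261 nt of coding sequence for 2086 residues. Among the 25074 gene models the median number of exons was 3, and 0.518% of models had at least 45. For SUTP1 that share was 8.72%, with at least 17 exons. No sequence of this assembly was used, so the layout is described from annotated lengths alone.

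The exons of SUTP2 repeat in length with a period of 10. Of 35 pairs of coding segments 10 exons apart, 21 had exactly the same length and 31 ended in the same reading phase. At every other spacing from 2 to 15 exons, 0 pairs had the same length. After 2 leading segments, the coding sequence fell into 4 units of 10 segments, followed by 3 closing segments. The coding lengths in unit 3 were 160, 124, 109, 117, 174, 93, 129, 267, 78 and 66 nt in order. Unit 1 had 157, 124, 109, 117, 174, 99, 129, 255, 81 and 66 nt in the same order. Each of the first 9 places differed by at most 12 nt among the 4 units, always by a multiple of 3, and ended in the same phase. Units 1, 2 and 3 held 1311, 1320 and 1317 nt of coding sequence. Unit 4 differed from them most in its last segment, which was 190 nt long in place of 66 nt.

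The introns of these units varied more than the exons at the same places. The intron after place 3 was 227, 535, 351 and 290 nt long in units 1, 2, 3 and 4. The intron after place 2 was 147, 153, 150 and 148 nt, and 0 of the 10 places had an intron of equal length in all 4 units. The longest intron of this transcript, of 4518 nt, followed the first segment of unit 1.

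SUTP1 has 2 stretches that resemble a SUTP2 unit in their order of lengths, and that open with the same order of phases. Its segments 2 to 9 were 163, 133, 88, 117, 159, 102, 132 and 432 nt long, and segments 10 to 16 were 160, 118, 211, 165, 105, 141 and 862 nt long. Segments 4 and 5, in the first stretch, sum to 205 nt, beside the lone segment of 211 nt in the second stretch and 226 to 229 nt for the same places in the SUTP2 units. In the next places the lengths were 159 and 165 nt in SUTP1 and 168 to 174 nt in SUTP2, then 102 and 105 nt in SUTP1 and 93 to 99 nt in SUTP2. The first stretch of SUTP1 holds 1326 nt of coding sequence, and the second 1762 nt, against 1311 to 1320 nt for units 1 to 3 of SUTP2 and 1441 nt for unit 4. SUTP1 lacks the exact recurrence of lengths seen in SUTP2, with 0 equal pairs at any spacing that left at least 10 pairs. Units were drawn on both genes after their lengths had been seen.

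**Figure D2:**
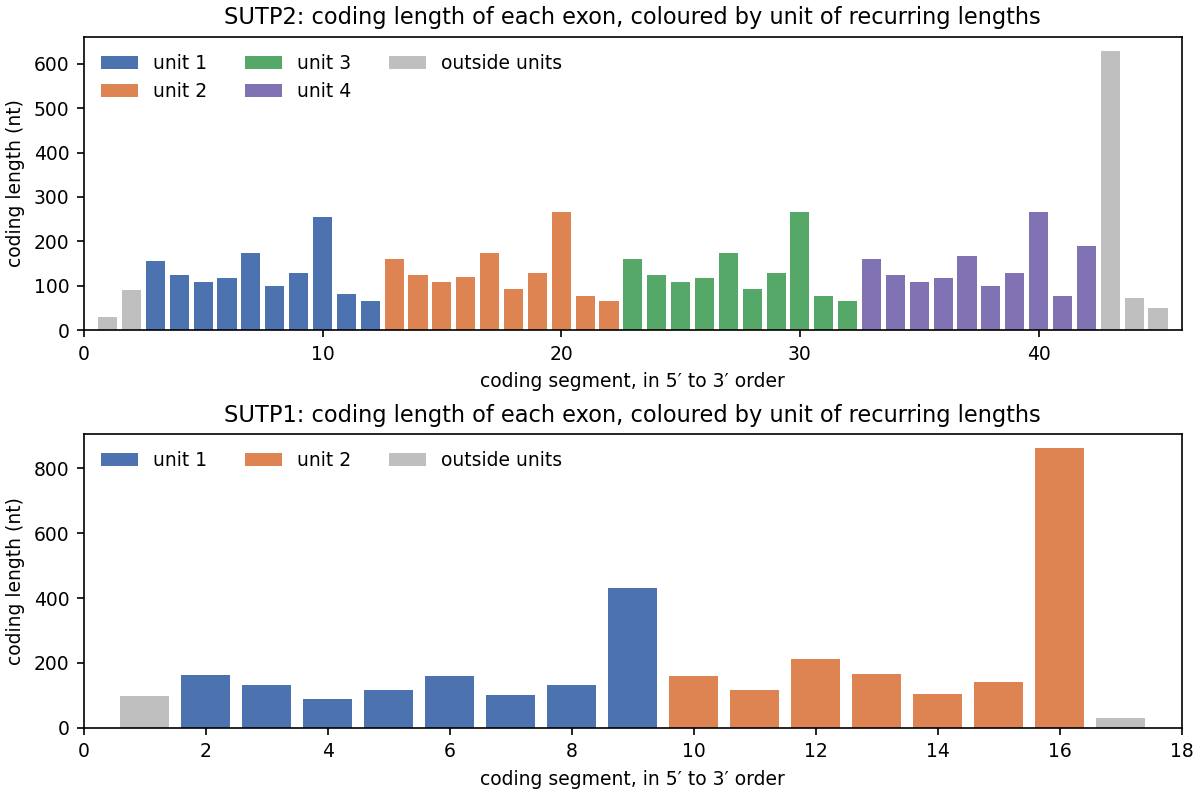
Coding length in nt of each coding segment of the longest SUTP2 transcript (top) and of SUTP1 (bottom), in 5′ to 3′ order, coloured by unit of recurring lengths. The 4 units of SUTP2 show similar lengths in the same order, equal in all 4 units at 3 of the 10 places. A tall segment of 255 or 267 nt stands at their eighth place. The 2 stretches of SUTP1 each end in a long segment of 432 or 862 nt.

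The 2 shorter transcripts of SUTP2 are built from parts of several units. Each has 16 coding segments, with 2304 and 2310 nt of coding sequence, and each keeps the leading and closing segments and about as many inner segments as 1 unit. The first of them joins 54 nt of segment 6, in unit 1, to 63 nt of segment 26, in unit 3. These parts sum to 117 nt, the full length of each of those segments. The second joins 39 nt of segment 30, in unit 3, to 228 nt of segment 40, in unit 4, and these sum to 267 nt, again the full length of each. Both joins therefore fall at matching positions of segments that hold the same place in different units. Reads were 50 nt long, shorter than nearly all of these segments, and the sources used here do not say how reads that map to several places were assigned. How much this affects the SUTP2 level was not tested.

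Lengths recurred in few other models as strongly. Among 2157 models with at least 17 coding segments, the share of pairs of equal length at the best spacing had a median of 4.76%. For SUTP2 it was 60.0%, at rank 7. A search of all annotated transcripts for 3 consecutive coding lengths of unit 3 of SUTP2, with 8 such triplets, found them in the transcripts of SUTP2 and in no other gene, SUTP1 included.

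Around SUTP1 the response was shared by a single neighbour. CREG1A (DsB_g13618; chromosome 7, 15898689 to 15903326, minus strand) lies head to head with SUTP1, with 243 nt between the gene models. It has a CREG domain, named after a secreted glycoprotein of animals that is found in lysosomes. CREG1A had 594, 542 and 320 FPKM in replicates 1, 2 and 3 without added iron, against 0.629, 0.251 and 0.422 FPKM in replicates 1, 2 and 3 with added iron. It rose without added iron, with a log2 difference of 8.36 (SE 0.225; limma adjusted p = 4.45e-07). This rise was known beforehand, and CREG1A passed the filter only through its libraries without added iron. Its adjusted p is therefore no independent evidence. CREG1A and SUTP1 were thus both high without added iron and low with it, with replicate 3 the lowest without added iron. For 42 of the 45 genes called at least 4-fold higher, replicate 3 was likewise under the mean of replicates 1 and 2. With added iron the lowest library was replicate 2 for CREG1A and replicate 3 for SUTP1.

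CREG1A divided by SUTP1 was 3.12, 2.79 and 3.20 in replicates 1, 2 and 3 without added iron, against 1.97, 0.869 and 1.75 in replicates 1, 2 and 3 with added iron. This ratio averaged 3.04 ± 0.218 in the libraries of no added iron and 1.53 ± 0.580 in those of added iron (SD, n = 3 each). In the libraries of added iron both levels rest on few reads. The sources used here do not say whether reads were counted by strand, and the 2 models do not overlap. The SUTP1 model starts with its first coding segment, at base 15903570, with no untranslated part annotated before it. Where its transcript starts was not tested.

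None of the other 9 models among the 10 nearest to SUTP1 was called higher. Over all genes tested, 4.19% were called higher and 5.2% lower. DsB_g13616 (chromosome 7, 15885291 to 15887158, minus strand), with a domain of photosystem II protein W, had 1473 ± 130 FPKM without added iron and 2651 ± 257 FPKM with it (SD, n = 3 each). It fell by 0.85 in log2 units (limma adjusted p = 0.00297) and lies 16411 nt from SUTP1. Another 6 were tested and not called, with differences between -0.16 and -0.02 and limma adjusted p of at least 0.320. Among them was DsB_g13615, annotated as a chloroplast phosphoglycolate phosphatase, an enzyme of photorespiration, with 59.99 ± 6.75 FPKM without added iron and 63.4 ± 5.47 FPKM with it (SD, n = 3 each). The last 2 were below the filter. DsB_g13614 was listed at 0 in all libraries, and DsB_g13617 had 0, 0 and 0.225 FPKM in replicates 1, 2 and 3 without added iron, against 0.722, 1.18 and 1.04 FPKM in replicates 1, 2 and 3 with added iron.

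None of the neighbours of SUTP2 that could be tested was called. Of the 10 nearest models, 4 were tested and 0 were called at an adjusted p under 0.05. Their differences lay between -0.09 and 0.14, with limma adjusted p of at least 0.502. Over all genes tested 9.39% were called, so 0 calls among 4 genes is near that share and nothing is read from it. The model next to SUTP2 upstream, DsB_g23331, ends 3025 nt before it on the same strand. It had 7.57 ± 0.573 FPKM without added iron and 7.98 ± 0.362 FPKM with it (SD, n = 3 each; limma adjusted p = 0.662). UOX1, a gene with a uricase domain 19907 nt downstream, had 150.5 ± 18.6 FPKM without added iron and 135.8 ± 12.6 FPKM with it (SD, n = 3 each; limma adjusted p = 0.526). UOX1 passed the threshold under 2 of the scalings tried, and DsB_g23330 under 1 of them. The 4 models directly downstream were all under 1 FPKM on average and were not tested, among them DsB_g23336 at 0.640 ± 0.173 FPKM without added iron and 0.860 ± 0.154 FPKM with it (SD, n = 3 each). Another, DsB_g23339, had 0.00996, 0.0282 and 0 FPKM in replicates 1, 2 and 3 without added iron. It had 0.451, 0.132 and 0.105 FPKM in replicates 1, 2 and 3 with added iron. Its groups did not overlap at these low levels, which was also so for 30.2% of the genes that were tested.

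**Figure D3:**
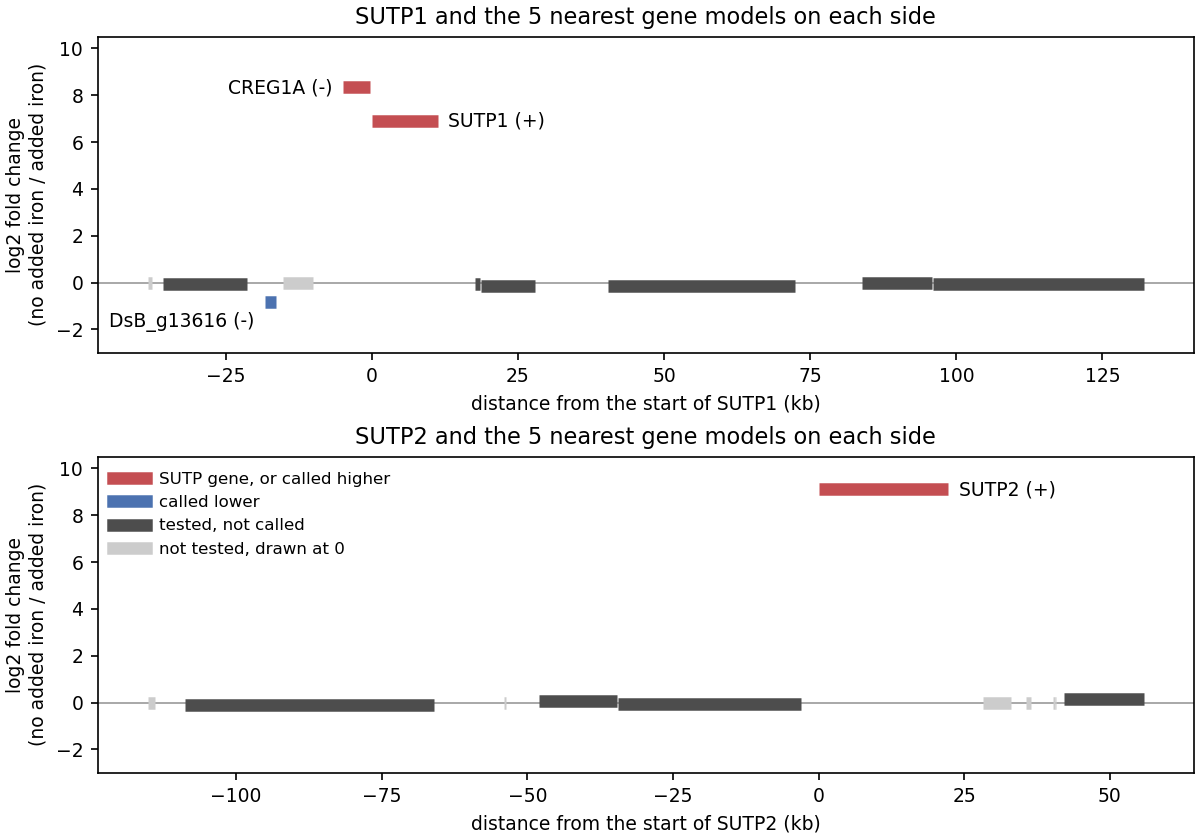
Log2 difference in log2(FPKM + 1), libraries of no added iron minus those of added iron, of SUTP1 (top) and SUTP2 (bottom) and the 5 nearest gene models on each side, against distance in kb from the start of the gene. CREG1A at 8.36 stands beside SUTP1 at 6.92, while the neighbours of SUTP2, at 9.11, are near 0 where they were tested.

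Head-to-head neighbours are common in this annotation, while joint rises of at least 4-fold were few. There were 2360 head-to-head pairs with both genes tested and a gap of at most 1000 nt, and 1739 of them had a gap no wider than the 243 nt of CREG1A and SUTP1. Both genes were called higher in 8 pairs, which is 0.339%, and both were called lower in 26 pairs. The first count was 5 without replicate 2 of added iron and 14 without replicate 3 of no added iron. It was 16 to 21 with median-of-ratios or quantile scaling and 182 with columns rescaled to an equal sum. Both genes were called at least 4-fold higher in 3 pairs, which is 0.127%, under each of these settings. Of all single genes tested, 4.19% were called higher and 0.324% at least 4-fold higher. A share of pairs and a share of single genes are unlike measures. Whether joint rises were more frequent than single rises would give was not tested. The 3 pairs were CREG1A with SUTP1, UBC16 with DsB_g02807, and TFN3 with DsB_g05826. The pair of CREG1A and SUTP1 was known to rise before this count was made, so the count is background to it and not a test.

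The genes with the profile most like that of each SUTP gene were found by the root mean square difference of log2(FPKM + 1), each gene centred on its own mean over the 6 libraries, among 13908 genes. The difference between the groups dominates this measure, so genes with a log2 difference near that of the SUTP gene tend to come first. That difference belongs to the contrast that chose the pair. For SUTP1 the smallest differences were 0.15 for DsB_g05645, a gene with no model in the annotation used here, 0.17 for MCA1 and 0.37 for FOX1. MCA1 has pentatricopeptide repeats and is known in *Chlamydomonas* for stabilising a chloroplast transcript, and FOX1 is a multicopper oxidase gene. DsB_g05645 had 197, 205 and 91.7 FPKM in replicates 1, 2 and 3 without added iron, against 0.0350, 0.0781 and 0.0897 FPKM in replicates 1, 2 and 3 with added iron, with the same low replicate 3 as SUTP1. Next came DsB_g04033, with a SOUL heme-binding domain, at 0.38 and DsB_g02807 at 0.43.

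For SUTP2 the smallest differences were 0.30 for TIDI1, which has a domain of light-harvesting chlorophyll proteins, and 0.37 for the flavodoxin gene FLD1. CREG1A, DsB_g04129 and DsB_g02799 followed at 0.45, 0.56 and 0.65. All 5 had a lower ratio of replicate 3 to the other replicates without added iron than SUTP2 did, as the plot of centred profiles shows. SUTP1 and SUTP2 differed from each other by 1.12, which placed SUTP2 at 17 in the order of likeness to SUTP1 and SUTP1 at 9 in the order of likeness to SUTP2. These orders depend on the value added before the logarithm. With 0.1 in place of 1, an alternative chosen after seeing the data, 2 of the 5 genes named for SUTP1 and 4 of the 5 named for SUTP2 stayed among the 5 most alike. SUTP1 and SUTP2 then differed by 0.54, which placed SUTP2 at 5 in the order for SUTP1, behind DsB_g02807, DsB_g02799, TFN3 and FOX1, and SUTP1 at 8 in the order for SUTP2.

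**Figure D4:**
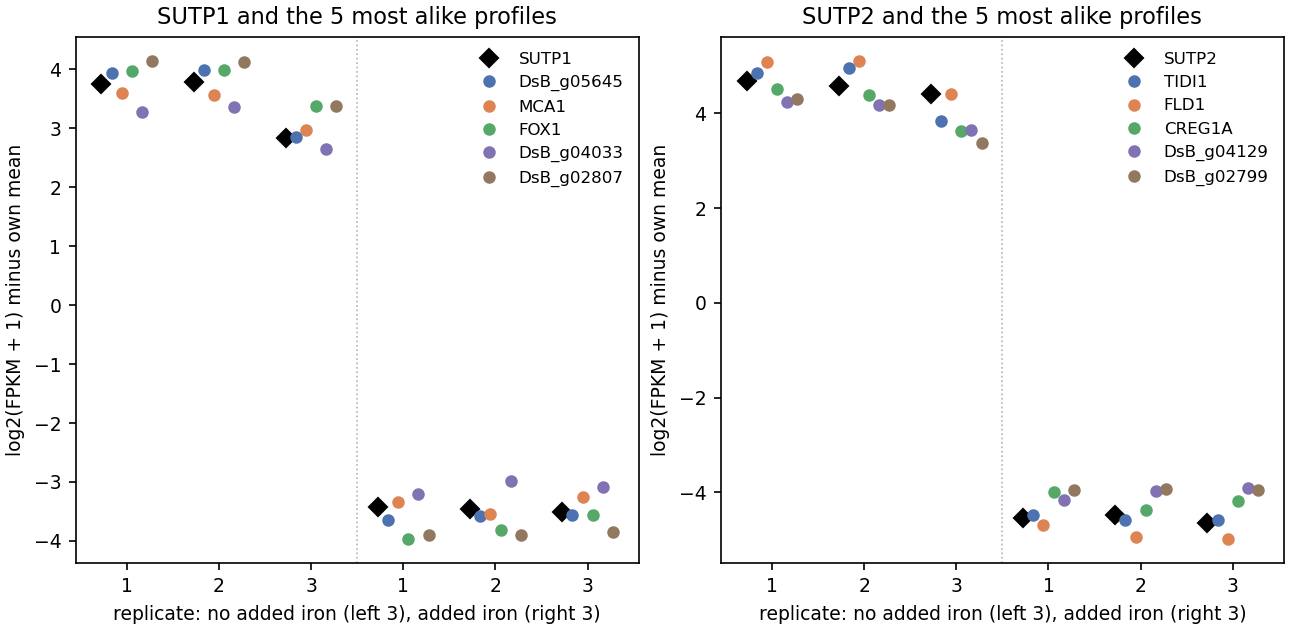
Log2(FPKM + 1) minus the mean of each gene over the 6 libraries, for SUTP1 (left panel) and SUTP2 (right panel) with the 5 genes of most alike profile; each point is a library, without added iron left of the dotted line. SUTP1 and its 5 genes are all lowest in replicate 3 without added iron, whereas SUTP2 is nearly level over its 3 replicates there.

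A list of genes taken by symbol, mostly of iron uptake and storage, served as the setting for the pair. It took the symbols FOX, MCO, FRE, FTR, IRT, ZIP, ZRT, NRAMP, TFN, TTF, FEA, FER, VIT and CREG, with an optional number and letter. The symbols were in part known from earlier results of these data, so the list is no independent evidence. Of 24 genes matched, 23 were tested, 10 were called higher without added iron, 4 were called lower and 9 did not pass. CREG1A, the neighbour of SUTP1, and CREG1B are among the 10 called higher. No role in iron uptake or storage is stated here for these CREG genes. Over all genes tested, 4.19% were called higher and 5.2% lower. The median log2 difference was 0.20 over the list and 0.00 over all genes tested. Neither SUTP gene is on the list.

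The uptake genes that rose all had lower means without added iron than SUTP2, and some were above SUTP1. The ferroxidase-type gene FOX1 had 917 ± 206 FPKM without added iron and 3.81 ± 0.690 FPKM with it (SD, n = 3 each), a log2 difference of 7.56 (limma adjusted p = 3.78e-07). TFN1, with transferrin domains that bind ferric iron, had 1290 ± 184 FPKM without added iron and 19.1 ± 5.82 FPKM with it (SD, n = 3 each; 6.04, limma adjusted p = 2.18e-06). The metal transporter gene IRT1, of the ZIP family, had 80.0 ± 12.7 FPKM without added iron and 1.48 ± 0.210 FPKM with it (SD, n = 3 each; 5.02, limma adjusted p = 3.78e-07). The SUTP2 mean of 1712 FPKM without added iron was thus above those of FOX1, TFN1 and IRT1, and the SUTP1 mean was between those of IRT1 and FOX1.

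Further members of the list rose, and 4 fell. FRE1A, a ferric reductase-type gene, had a log2 difference of 5.73 and TFN3, another transferrin gene, a difference of 5.59 (limma adjusted p = 6.33e-07 and 3.78e-07). Smaller rises were found for TFN6 at 2.27, the NRAMP-type metal transporter gene NRAMP4 at 2.31 and CREG1B at 2.14 (limma adjusted p of at most 0.000183). CREG1B, the other gene of the list with a CREG symbol, had 110 ± 22.8 FPKM without added iron and 23.9 ± 2.00 FPKM with it (SD, n = 3 each). FER1, encoding the iron store ferritin, fell by 2.52 in log2 units, with 75.6 ± 8.56 FPKM without added iron and 439.9 ± 71.1 FPKM with it (SD, n = 3 each; limma adjusted p = 3.50e-05). The other 3 that fell belong to families with members that rose: ZIP9 fell by 0.91, TFN4 by 0.55 and FRE1B by 0.35 in log2 units (limma adjusted p = 0.00584, 0.0205 and 0.0326). The 10 genes of the list with the smallest adjusted p, CREG1A and FER1 included, kept their direction and stayed past the threshold under all alternatives tried.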

How the data were processed

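The authors aligned reads with STAR 2.4.0j and computed FPKM with Cuffdiff 2.0.2, per the submitters' processing notes. The deposited FPKM values, 1 column per library, are per gene, and reads were 50 nt single-end, per the labels and the series' design text. The sources used here do not give strandedness, the assignment of reads with several matches or any further scaling. Gene models come from the authors' annotation version 1.1, coordinates count from 1, and 0 of its identifiers matched the reference table of another strain.

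Genes with a mean of at least 1 FPKM over 6 libraries were tested, 13909 in all, on log2(FPKM + 1) with limma 3.58.1 (R 4.3.3), a model of group alone, a mean-variance trend, Benjamini-Hochberg adjustment and a two-sided threshold of 0.05. Fold changes on this scale understate the change of low genes. The fit and the search for read steps, made over models with 1 transcript and over 400 nt of exons, were tested on simulated data. The simulated steps all had the same offset, whereas replicates 1 and 2 held steps with and without it. That test therefore does not cover the depths implied for replicates 1 and 2. Lengths and profiles were handled in Python 3.11.15 with pandas 2.3.3 and numpy 2.4.6, and figures drawn with matplotlib 3.10.9. Flasks are separate cultures, per the series' design text.

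The genes, lists and tests were chosen with earlier results of these data known. Named were SUTP1 and SUTP2, the 5 nearest models on each side, the 10 list genes with the smallest adjusted p, the 5 most alike profiles for each, and the genes next to each in rank. ZIP9, TFN4, FRE1B, UBC16, DsB_g05826, PHO1 and DsB_g10312 were named after their values were seen. Alternatives were another pseudocount, no filter, 3 scalings, single libraries left out, replicates 1 and 2 only, and a replicate block. Same-numbered libraries did not deviate together, so numbers were not taken to pair them.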

Additional observations from a re-analysis of the deposited data

How the results depend on the processing

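The log2 differences of SUTP1 and SUTP2 kept their direction in every alternative run. They were 8.66 and 9.61 with a pseudocount of 0.1, and 7.69 and 9.51 with columns rescaled to a sum of 1000000, which moved the median of all genes by 0.17. Quantile normalization gave 9.34 for SUTP2. The number of genes called depended on the processing, from 1306, of which 583 were higher. It was 3736 with rescaled columns, 3185 of them higher (85.3%, against 44.6%), and 2143 with quantile normalization, 1049 of them higher. Without replicates 1, 2 and 3 of no added iron it was 736, 586 and 1784, of which 298, 271 and 931 were higher. Without replicates 1, 2 and 3 of added iron it was 792, 667 and 691, of which 368, 272 and 348 were higher. With replicates 1 and 2 alone, 1010 were higher. Of 20 neighbours 2 were called, and 4 with rescaled columns, where DsB_g23330 and UOX1 passed as higher (0.26 and 0.32, limma adjusted p of 0.0409 and 0.0249); UOX1 also passed with quantile normalization (0.22, 0.0495). Head-to-head pairs with both genes higher numbered 8, and 182 with rescaled columns, 16 with median-of-ratios factors, 21 with quantile normalization, 19 with replicates 1 and 2 alone and 5 to 14 without single libraries. The 4-fold count was 3 in every alternative. Iron list calls ranged from 12 to 18.

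Deviations of same-numbered libraries correlated at 0.03, 0.08 and -0.14, so the numbers were not taken to pair the libraries, although replicate 3 of both groups shares the value steps described above. A replicate block gave 813 genes, 365 of them higher, and left the differences at 6.92 for SUTP1 and 9.11 for SUTP2. No alternatives could be run for genes sharing a Pfam domain, as there were 0. The SUTP1 level with added iron rests on 21.0 to 26.0 implied reads a library. The cause of these shifts was not tested.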

Other observations

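Coding lengths recurred most in 7 models, a list cut at SUTP2, which was at rank 7, and 4 of them passed the filter on low levels. The next models followed closely, with 58.3% and 57.6% of pairs equal, beside 60.0% for SUTP2. PHO1 (DsB_g23137), whose symbol in plants is that of a phosphate exporter, also lies on chromosome 15 and had 35 of 43 pairs of equal length at a spacing of 13, over 56 coding segments. Its mean was 0.260 FPKM without added iron and 0.387 FPKM with it, below the filter. DsB_g10312 had 11 of 13 pairs equal at a spacing of 12, with 11.1 FPKM without added iron and 14.2 FPKM with it (limma adjusted p = 0.0598). SUTP2 was the sole model of the 7 above 100 FPKM in either group. It was picked for its known response in these data, so nothing is read from this.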
